A study of Homo sapiens with 10 samples.

Results

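The genes described here encode 9 enzymes through which cells supply and recycle NADPH or feed the pentose phosphate pathway: PGD, PGLS, RPIA, TALDO1, TKT, ME1, ME2, IDH1 and IDH2. Every array probe that the platform annotation assigns to one of these symbols was taken, which gave 12 probes for 9 genes among 48803 probes in all; TALDO1, ME2 and IDH1 have 2 probes each and the other 6 genes 1 each. The first 5 genes belong to the pentose phosphate pathway, while ME1, ME2, IDH1 and IDH2 make NADPH or NADH outside it, so the group is broader than that pathway alone. RNA came from NCI-H441, an established human lung adenocarcinoma cell line, kept for 12 h either with 1 µM CLEFMA in DMSO (5 arrays, treated) or with the same volume of DMSO and no compound (5 arrays, control). DMSO was at 0.1% in both groups, and CLEFMA is a small molecule that, by the series title, kills this line by necrosis through oxidative stress. The labels speak of 5 replicates, of 4 wells per group and of 3 biological replicates, and they do not say that each array is a separate culture. The p-values therefore measure only the spread between these arrays, which may be technical.

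NADPH is the reducing agent that glutathione reductase, thioredoxin reductase, quinone and carbonyl reductases and fatty acid synthesis draw on. In the oxidative branch of the pentose phosphate pathway, sugar phosphate is oxidised and NADPH is made. In the non-oxidative branch, pentose phosphates are rearranged and can be returned to glycolysis, which lets the oxidative branch go on without a build-up of ribose phosphate. Malic enzymes and isocitrate dehydrogenases make further NADPH in the cytosol or in mitochondria. Genes of several of these enzymes are known targets of the transcription factor NRF2, which answers oxidants and electrophiles and binds antioxidant response elements in DNA.

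Levels are log2 of the deposited signal after an offset of 3 table units and quantile normalization, and a difference of 1 is a 2-fold change on that scale. The base of the deposited values, 10, was inferred from their range, so every fold rests on it. A probe was taken as above background where its deposited log10 value exceeded 0.2, and all 12 probes passed the filter on dim probes. On every array all of them were above background except the dimmer TALDO1 probe, which was above background on 4 of 5 control and 5 of 5 treated arrays. Between 49.1% and 53.7% of all probes were above background on an array. Control 3 stood apart, its correlations with the rest averaging 0.978 against 0.986 to 0.990. Of 10 markers of lung epithelial lines 9 were measured, and each was above background on all 10 arrays, among them EPCAM, KRT8, NKX2-1 and the surfactant gene SFTPB. Of the fibroblast, leukocyte and endothelial markers, COL1A1, DCN and LUM (of 6 fibroblast genes measured), CD14, LYZ and MS4A1 (of 6 leukocyte genes) and PECAM1 (of 3 endothelial genes) were above background on all 10 arrays, and COL3A1, ITGAM and CDH5 on none. No marker passed the test between the groups. Mean levels of the lung epithelial list ran from 9.68 to 9.77 on control and from 9.52 to 9.62 on treated arrays. These ranges did not overlap, with treated below control, and the cause was not tested. The mean level of the fibroblast list ran from 3.47 to 3.66 on control and from 3.45 to 3.57 on treated arrays, that of the leukocyte list from 2.33 to 2.90 and from 2.63 to 2.91, and that of the endothelial list from 2.19 to 2.64 and from 2.28 to 2.48. In RNA from whole wells, fewer cells and less RNA per cell cannot be told apart.

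Promoter windows are shown for the 4 genes with the largest differences (ME1, PGD, TALDO1 and TKT) and for IDH1, which holds a match without such a difference. Each is the stretch of 250 bases before a start site in the RefSeq table (GRCh38.p14), read 5′ to 3′ on the gene's strand. Capitals mark a match to the core of the antioxidant response element, TGACNNNGC, on either strand.
ME1, chr6:83431052-83431301, minus strand: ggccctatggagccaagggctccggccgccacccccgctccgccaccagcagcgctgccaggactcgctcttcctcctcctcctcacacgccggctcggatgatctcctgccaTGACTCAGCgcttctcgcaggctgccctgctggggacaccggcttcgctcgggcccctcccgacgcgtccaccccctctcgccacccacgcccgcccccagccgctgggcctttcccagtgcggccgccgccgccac
PGD, chr1:10398814-10399063, plus strand: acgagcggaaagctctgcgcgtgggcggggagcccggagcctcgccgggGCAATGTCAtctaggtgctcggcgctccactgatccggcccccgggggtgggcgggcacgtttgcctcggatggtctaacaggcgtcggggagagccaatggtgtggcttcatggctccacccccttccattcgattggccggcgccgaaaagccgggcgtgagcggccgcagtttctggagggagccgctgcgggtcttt
TALDO1, chr11:747214-747463, plus strand: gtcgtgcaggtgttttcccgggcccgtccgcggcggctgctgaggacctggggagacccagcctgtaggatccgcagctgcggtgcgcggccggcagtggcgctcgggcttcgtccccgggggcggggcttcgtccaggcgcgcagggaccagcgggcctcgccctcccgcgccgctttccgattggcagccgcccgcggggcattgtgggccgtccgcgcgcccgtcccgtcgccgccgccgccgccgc
TKT, chr3:53256023-53256272, minus strand: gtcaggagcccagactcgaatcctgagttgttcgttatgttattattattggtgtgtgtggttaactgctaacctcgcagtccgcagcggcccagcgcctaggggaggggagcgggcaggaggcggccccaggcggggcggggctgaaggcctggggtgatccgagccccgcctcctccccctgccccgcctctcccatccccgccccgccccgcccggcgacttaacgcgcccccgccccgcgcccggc
IDH1, chr2:208255072-208255321, minus strand: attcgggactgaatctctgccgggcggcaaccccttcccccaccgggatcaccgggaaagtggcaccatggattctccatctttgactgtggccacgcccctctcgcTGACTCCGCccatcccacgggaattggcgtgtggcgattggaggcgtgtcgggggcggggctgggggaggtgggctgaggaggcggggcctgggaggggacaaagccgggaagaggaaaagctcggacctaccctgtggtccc

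The full windows of 300 bases, which run 50 bases past the start, held the core in 3 of the 10 windows of these 9 genes (IDH1 has 2 windows), against 13.3% of all 35116 windows in the table. The ME1 match TGACTCAGC began 137 bases before the start, and a second ME1 match, GCACCGTCA on the other strand, lay just past it. The PGD match GCAATGTCA was on the other strand and began 201 bases before the start, and the IDH1 match TGACTCCGC began 143 bases before it. No match was found in the windows of TALDO1, TKT, PGLS, RPIA, ME2 or IDH2, which says only that these letters are not in that stretch. The only IDH2 window (upstream part chr15:90100622-90100871, minus strand) belongs to an inner start and lies inside the gene (chr15:90083045-90102468). The stretch before the outer IDH2 start was not searched. The GC box GGGCGG, a common promoter element that can occur many times in one window, was in 9 of the 10 windows and in 45% of all windows, and the CCAAT box, CCAAT, in 6 of the 10 and in 34.6% of all. The window without a GC box was that of IDH2. These matches are descriptions of sequence and are not measured binding.

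Treated and control cells were compared to find which of these transcripts changed within 12 h of exposure. The brighter TALDO1 probe was 1.47-fold higher in treated cells and passed the test, a call lost in 12 of 22 alternative settings. The dimmer TALDO1 probe, near background, showed no rise. PGD, TKT and ME1 were higher by 1.47-fold, 1.43-fold and 1.97-fold without passing the test. PGLS, RPIA, ME2, IDH1 and IDH2 differed by at most 0.14 on the log2 scale in either direction. Over all 17752 genes tested, limma called 47 higher at an adjusted p under 0.05 (0.265%) and 6 lower (0.0338%), while 1 of the 9 genes was called higher and 0 lower. Before adjustment, 4 of the 9 were higher and 0 lower at 0.05, and 4.48% of all genes were higher and 4.48% lower at that level. For PGD, TALDO1 and TKT every treated array lay above every control array, a pattern seen in 1.46% of all genes. The median difference of the 9 genes was 0.12, against 0.0067 over all genes.

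**Figure D1:**
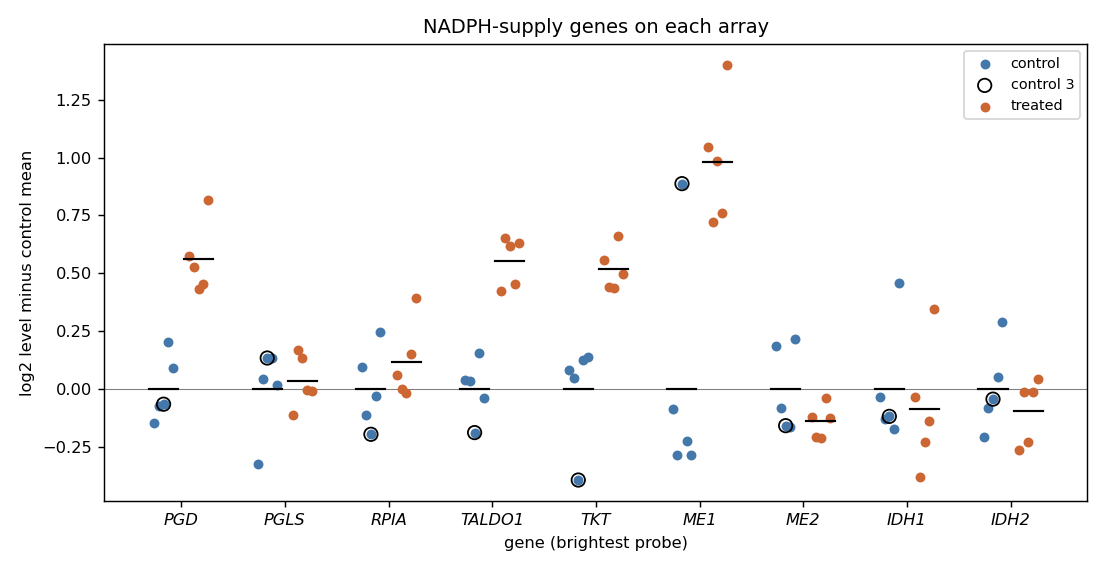
Log2 level of each of the 9 genes (brightest probe) on each array, minus the control mean of that gene; blue points are 5 control arrays, orange points 5 treated arrays, black bars group means, and the ringed point is control 3. The treated points of PGD, TALDO1 and TKT all lie above their control points, and the ringed ME1 value of control 3 lies among the treated arrays.

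PGD, 6-phosphogluconate dehydrogenase (chr1:10399064-10420511, GRCh38.p14), makes NADPH in the oxidative branch while it turns 6-phosphogluconate into ribulose 5-phosphate. Its log2 levels on controls 1 to 5 were 7.89, 7.96, 7.97, 8.24 and 8.13, and on treated arrays 1 to 5 they were 8.61, 8.56, 8.47, 8.49 and 8.85. The groups did not overlap, and the highest control array stood 0.23 log2 units below the lowest treated one. Means were 8.04 ± 0.14 in control and 8.60 ± 0.15 in treated cells (SD, n = 5 each). The difference of 0.56 ± 0.10 (SE) just missed the threshold (limma adjusted p = 0.0507, unadjusted p = 1.54e-04), with a 95% confidence interval of 0.33 to 0.78. It ranked as the 54th smallest p among all genes tested. Treated 5 gave the highest PGD level, and the difference without that array was 0.50. Across 22 alternative settings the PGD difference ran from 0.50 to 0.61 and the limma adjusted p from 0.0327 to 0.15, and 5 settings passed.

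PGLS, 6-phosphogluconolactonase (chr19:17511649-17521288), hydrolyses the lactone just before PGD and makes no NADPH itself. PGLS levels ran from 7.47 to 7.93 on control and from 7.68 to 7.96 on treated arrays, so the groups overlapped. Its difference was 0.03 ± 0.11 (SE), with a 95% confidence interval of −0.20 to 0.27 (limma adjusted p = 0.923), and it changed sign under median scaling. Within each array the PGD level minus the PGLS level was 0.25 ± 0.15 in control and 0.77 ± 0.22 in treated cells (SD, n = 5 each). This within-array difference was larger in treated cells by 0.52 ± 0.12 (SE; exact two-sided permutation p = 0.00794, the smallest that 5 against 5 arrays can give; 0.0198 adjusted over the 5 pairs tested). On every treated array it exceeded every control value. The 5 pairs were chosen with earlier results of these data known, so their p-values are no independent evidence of an unequal change.

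The non-oxidative branch is represented by RPIA, TALDO1 and TKT. RPIA, ribose 5-phosphate isomerase (chr2:88691673-88750929), interconverts ribulose and ribose 5-phosphate at the entry of the branch. Its levels ran from 6.93 to 7.38 on control and from 7.11 to 7.52 on treated arrays, with a difference of 0.12 ± 0.11 (SE; 95% confidence interval −0.13 to 0.36; limma adjusted p = 0.749). The groups overlapped over most of their range.

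TALDO1, transaldolase (chr11:747464-765012), moves a dihydroxyacetone unit between sugar phosphates. Levels of its brighter probe were 9.44, 9.43, 9.21, 9.55 and 9.36 on controls 1 to 5 and 9.82, 10.05, 10.01, 9.85 and 10.03 on treated arrays 1 to 5. All treated arrays were above all controls, and the arrays of each group lay close together (SD 0.13 in control and 0.11 in treated cells). The difference of 0.55 ± 0.09 (SE, n = 5 each; 95% confidence interval 0.35 to 0.75) passed in limma (adjusted p = 0.0254). This corresponds to a 1.47-fold rise, with an interval of 1.28 to 1.69. The call held in 10 of 22 alternatives, while the adjusted p ranged from 0.00999 to 0.449. It was lost without control 1, 2 or 5 (limma adjusted p = 0.0608, 0.0711 and 0.0645) and without treated 2, 3, 4 or 5 (0.103, 0.0974, 0.0537 and 0.0644), although the difference stayed between 0.51 and 0.59 whichever single array was left out.

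The second TALDO1 probe did not show this rise. It was near background, with levels of 2.06 to 2.74 on control and 2.27 to 2.92 on treated arrays, and its difference was 0.00 ± 0.17 (SE; 95% confidence interval −0.38 to 0.38; limma adjusted p = 0.998 over all probes). When both probes were averaged, the TALDO1 difference was 0.28 and did not pass (limma adjusted p = 0.449). The rise of TALDO1 therefore rests on 1 probe.

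TKT, transketolase (chr3:53224712-53256022), moves a glycolaldehyde unit with thiamine diphosphate as cofactor and links the branch to glycolysis. TKT levels were 10.51, 10.48, 10.03, 10.56 and 10.57 on controls 1 to 5 and 10.99, 10.87, 10.86, 11.09 and 10.92 on treated arrays 1 to 5. The groups did not overlap, and control 3 was the low array of its group. The mean was 10.43 ± 0.22 in control and 10.95 ± 0.09 in treated cells (SD). The difference of 0.52 ± 0.11 (SE; 95% confidence interval 0.27 to 0.76) did not pass (limma adjusted p = 0.124), nor in any of the 22 alternatives (0.0542 to 0.314). Without control 3 it was 0.42 (limma adjusted p = 0.0722).

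TKT and TALDO1 were each set against RPIA within arrays. TKT minus RPIA was 3.30 ± 0.16 in control and 3.70 ± 0.17 in treated cells (SD, n = 5 each), larger by 0.40 ± 0.10 (SE; exact permutation p = 0.0238, adjusted 0.0298). Its groups overlapped on 1 treated array, treated 5, at 3.40. TALDO1 minus RPIA was 2.27 ± 0.19 in control and 2.71 ± 0.19 in treated cells, larger by 0.44 ± 0.12 (exact permutation p = 0.00794, adjusted 0.0198), with no overlap. Both pairs share RPIA, so they are not independent of each other. They too were chosen with earlier results of these data known. The level of one probe minus that of another has no meaning as an amount, and only its change between groups was compared.

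**Figure D2:**
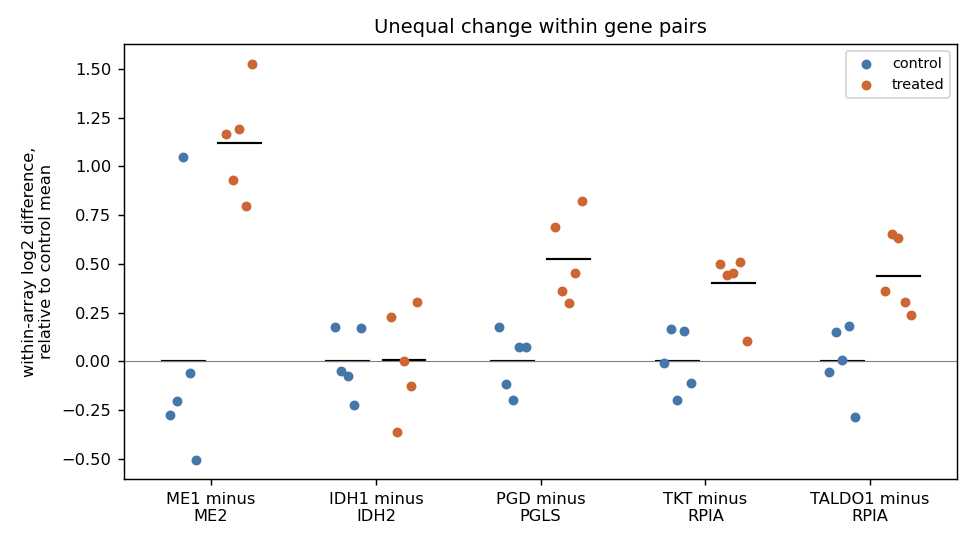
Within-array log2 difference of 5 gene pairs on each of 5 control (blue) and 5 treated (orange) arrays, minus the control mean of that pair; black bars are group means. PGD minus PGLS and TALDO1 minus RPIA separate the groups, IDH1 minus IDH2 does not, and the high control point of ME1 minus ME2 is control 3.

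The malic enzymes convert malate to pyruvate; ME1 is the cytosolic enzyme that makes NADPH, and ME2 is a mitochondrial enzyme that uses mainly NAD. ME1 (chr6:83210402-83431051) had the largest mean difference of the 9 genes. Its levels were 7.71, 7.52, 8.69, 7.57 and 7.51 on controls 1 to 5 and 8.85, 8.52, 8.78, 8.56 and 9.20 on treated arrays 1 to 5. The other controls lay close together, and control 3 lay among the treated arrays, above treated 2 and treated 4. The means were 7.80 ± 0.50 and 8.78 ± 0.27 (SD, n = 5 each). The difference of 0.98 ± 0.22 (SE; 95% confidence interval 0.50 to 1.46) did not pass (limma adjusted p = 0.14). Without control 3 it was 1.22 and passed (limma adjusted p = 0.00241), and it was 1.11 with array weights (0.00559). The range over 22 alternatives was 0.88 to 1.22, with adjusted p-values from 0.00241 to 0.341 and 3 settings that passed.

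ME2 (chr18:50879118-50954257) showed no such difference with either probe. The brighter ME2 probe ran from 7.84 to 8.22 on control and from 7.79 to 7.96 on treated arrays, and differed by −0.14 ± 0.10 (SE; 95% confidence interval −0.36 to 0.08; limma adjusted p = 0.666). The dimmer ME2 probe differed by −0.07 ± 0.09 (95% confidence interval −0.27 to 0.14; limma adjusted p = 0.879 over all probes). ME1 minus ME2 within arrays was −0.20 ± 0.61 in control and 0.92 ± 0.28 in treated cells (SD), larger by 1.12 ± 0.30 (SE; exact permutation p = 0.0238, adjusted 0.0298). Control 3, at 0.85, was the only control inside the treated range of 0.60 to 1.33. With any single array left out, this pair's change lay between 1.00 and 1.40 and its adjusted exact p between 0.0265 and 0.0397. Like the other pairs, it was chosen with earlier results of these data known.

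Isocitrate dehydrogenases IDH1 and IDH2 make NADPH while they turn isocitrate into 2-oxoglutarate, IDH1 in the cytosol and peroxisomes and IDH2 in mitochondria. Neither differed beyond the spread between arrays. The brighter IDH1 probe (chr2:208236227-208255071) ran from 9.34 to 9.97 on control and from 9.13 to 9.86 on treated arrays and differed by −0.09 ± 0.15 (SE; 95% confidence interval −0.42 to 0.25; limma adjusted p = 0.865). The dimmer IDH1 probe ran from 7.01 to 8.05 and from 7.25 to 7.76 and differed by 0.03 ± 0.17 (95% confidence interval −0.35 to 0.42; limma adjusted p = 0.963 over all probes). IDH2 (chr15:90083045-90102468) ran from 5.33 to 5.83 on control and from 5.28 to 5.59 on treated arrays and differed by −0.10 ± 0.11 (95% confidence interval −0.33 to 0.14; limma adjusted p = 0.788). IDH1 minus IDH2 within arrays was 3.97 ± 0.17 in control and 3.98 ± 0.27 in treated cells, a change of 0.01 ± 0.14 (SE; exact permutation p = 0.992). A miss of the threshold does not show that these levels were equal, and the intervals give the changes that remain possible.

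**Figure D3:**
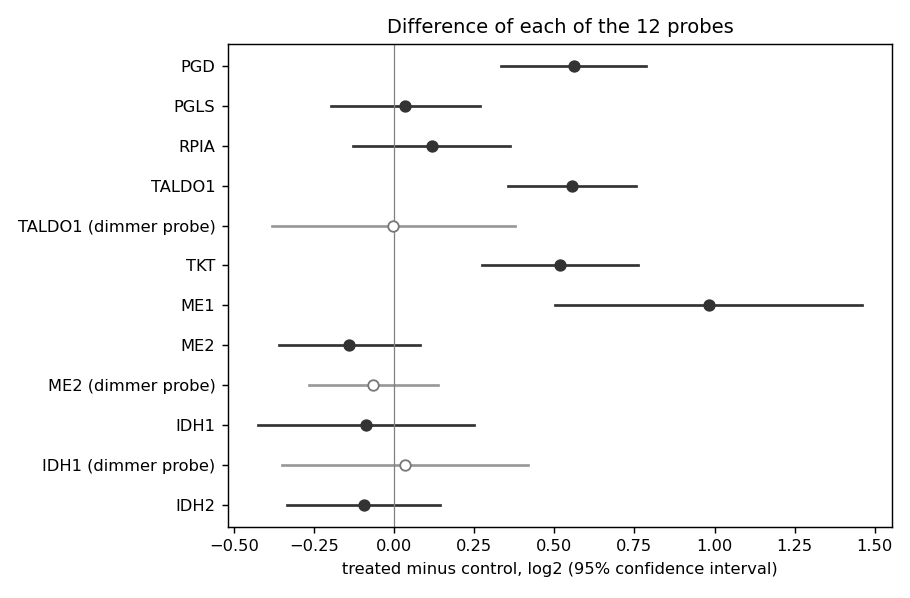
Treated minus control log2 difference of each of the 12 probes with its 95% confidence interval from limma; filled points are the brightest probe of a gene and open points the dimmer probe. The intervals of PGD, TALDO1 (brighter probe), TKT and ME1 lie above 0, and the other 8 include 0.

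Of the 9 genes, 4 had higher mean levels in treated cells by 0.52 or more on the log2 scale: the NADPH-making PGD and ME1, and the branch enzymes TALDO1 and TKT. Their differences were positive in all 22 alternatives. The 4 genes were singled out by their high values on the same arrays. For PGD, TALDO1 and TKT, whose groups did not overlap, leaving out an array could hardly change the sign. The differences of PGLS and IDH1, and of the dimmer TALDO1 and IDH1 probes, took either sign across the alternatives. The call of a single gene was sensitive to the setting. None of the 9 passed with an offset of 1 or on the deposited values, 2 passed with an offset of 12, and 3 (TALDO1, PGD and ME1) passed with array weights.

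**Figure D4:**
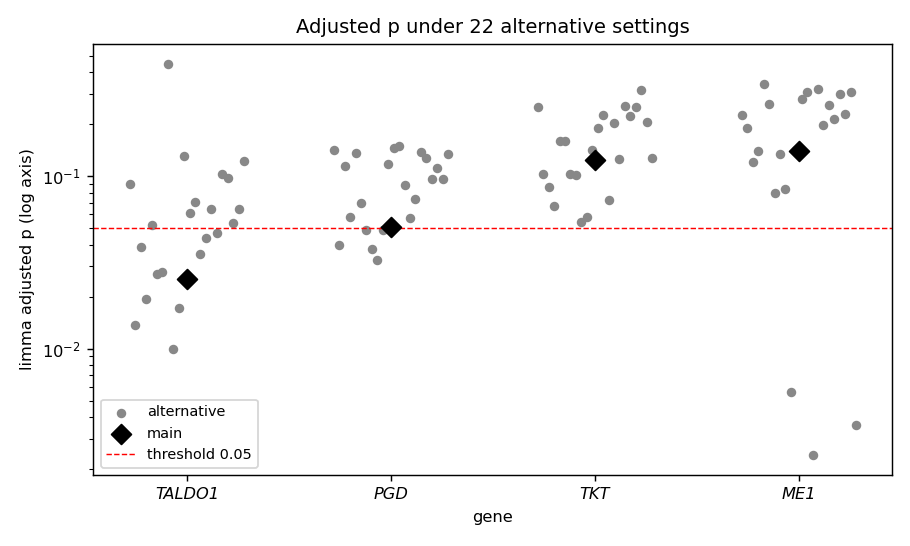
Limma adjusted p (log axis) of TALDO1, PGD, TKT and ME1; the diamond is the value reported here, grey points are 22 alternative settings and the dashed line is the threshold of 0.05. Points of TALDO1 and PGD fall on both sides of the line, all TKT points lie above it, and the 3 low ME1 points are the fits without control 3 and with array weights.

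Neighbouring genes of the same metabolism were taken from 5 further lists, whose unadjusted counts are to be read against the 4.48% of all genes in each direction. Of 10 other pentose phosphate and ribose genes measured, 0 passed in limma in either direction; unadjusted, 2 were higher and 0 lower at 0.05. Their median difference was 0.08. The closest to a change was RBKS, ribokinase, which phosphorylates ribose (0.44 ± 0.13, SE; limma adjusted p = 0.355), followed by PRPS1, which makes phosphoribosyl pyrophosphate from ribose 5-phosphate (0.32 ± 0.14; limma adjusted p = 0.518; 0.21 without control 3). RBKS differed by 0.25 without control 3 and both arrays numbered 5. Across the 22 alternatives RBKS ran from 0.25 to 0.50 and PRPS1 from 0.21 to 0.41. Both were named after their values were seen. H6PD, the oxidising enzyme of the same route in the endoplasmic reticulum, differed by 0.25 ± 0.13. This was 0.046 as the mean over its probes, 0.15 with an offset of 12 and 0.16 without control 3. Across the 22 alternatives the H6PD difference ran from 0.046 to 0.34.

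None of 14 measured genes listed as other suppliers of NADPH or NADP passed in limma. The list also holds enzymes that make neither, such as the NAD-linked IDH3A, IDH3B and IDH3G. Unadjusted, 1 of the 14 genes was higher and 0 were lower at 0.05, and their median difference was 0.08. Among them, MTHFD2, a mitochondrial folate enzyme, differed by 0.26 ± 0.12 (SE) and NADK, which makes NADP from NAD, by 0.15 ± 0.09. NADK was 0.065 under median scaling, 0.10 without further normalization and 0.098 without control 1, and ran up to 0.20 across the 22 alternatives. MTHFD2 and NADK are named as examples after their values were seen. NNT, the mitochondrial transhydrogenase, was above background on no array and has no usable value, though it is counted among the 14 and in their median. ALDH1L2, also counted, was above background on 1 of 5 control and 2 of 5 treated arrays. In the other lists TKTL1, PFKFB1 and TXNRD2 were above background on at most 2 of 5 arrays of either group and are counted too. IDH3A, a subunit of the NAD-linked isocitrate dehydrogenase, accounted for the unadjusted count (0.34 ± 0.13; limma adjusted p = 0.476).

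Genes of carbon entry and exit around the pathway did not pass either. In that list 0 of 16 passed in limma; unadjusted, 2 were higher and 1 was lower at 0.05, and the median was 0.10. GPI, which links glucose 6-phosphate and fructose 6-phosphate, differed by 0.37 ± 0.13 (limma adjusted p = 0.443). PFKP, a phosphofructokinase of glycolysis, differed by 0.36 ± 0.10 (limma adjusted p = 0.269). It was 0.23 as the mean over its probes and ran up to 0.41 across the 22 alternatives. TIGAR, a fructose bisphosphatase that lowers glycolytic flux, differed by −0.29 ± 0.10 (limma adjusted p = 0.411). Among 10 carriers and enzymes of malate, citrate and isocitrate, 0 passed in limma; unadjusted, 0 were higher and 1 was lower at 0.05, and the median was −0.02. The lower one was ACLY, ATP citrate lyase (−0.22 ± 0.09; limma adjusted p = 0.511). SLC25A10, the mitochondrial dicarboxylate carrier, had a mean difference of 0.59 ± 0.28 (limma adjusted p = 0.566). It was 0.28 without control 3, 0.38 without control 3 and both arrays numbered 5 and 0.38 with array weights. Across the 22 alternatives it ran from 0.28 to 0.74.

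Of 17 measured genes listed as NADPH-using reductases, 7 rose in limma, 0 fell and 10 did not pass. Over all genes tested, 0.265% were called higher and 0.0338% lower. Unadjusted, 11 of the 17 were higher and 0 lower at 0.05, and their median difference was 0.57. The list was chosen with earlier results of these data known. The largest rises were those of the aldo-keto reductases AKR1C2, AKR1B10 and AKR1C3 (log2 differences 4.06 ± 0.15, 3.97 ± 0.26 and 3.54 ± 0.17, SE). Across the alternatives AKR1C2 ran from 1.09 to 4.84, AKR1B10 from 2.66 to 5.28 and AKR1C3 from 3.26 to 3.60. The lowest AKR1C2 value was the mean over its probes, where NQO1, at 1.29, was higher, so the order depends on the probe rule. AKR1B10 was dim in control cells, above background on 4 of 5 arrays. Whether probes of these close relatives bind each other's transcripts was not tested. NQO1, a quinone reductase, rose by 1.28 ± 0.14, and GSR, glutathione reductase, by 1.16 ± 0.13 (limma adjusted p = 0.00173 and 0.00129); as the mean over its probes GSR rose by 0.77. These 5 passed in all 22 alternatives. Several of these reductases are also known NRF2 targets, and whether the lists differ from each other was not tested.

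**Figure D5:**
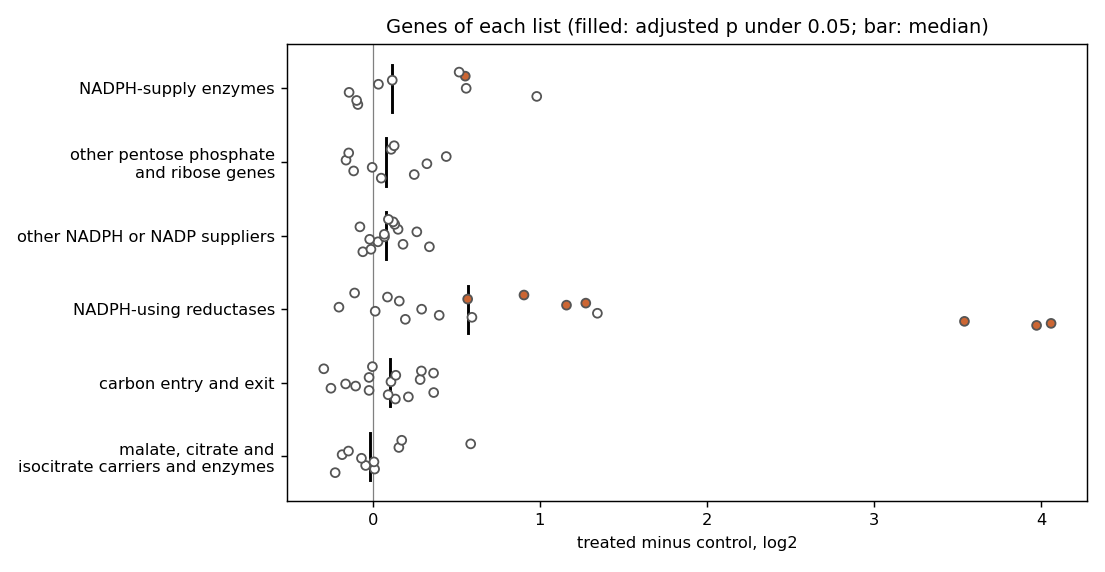
Treated minus control log2 difference of each measured gene in the 9 NADPH-supply genes and in 5 further lists; filled points have a limma adjusted p under 0.05 and the black bar is the median of the list. In the plot 1 point is filled among the supply enzymes, 7 among the NADPH-using reductases and 0 in the other 4 lists.

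Of all genes tested, PTGR1 and FTL had array profiles nearest to that of TALDO1. The root mean square difference of log2 levels over the 10 arrays, each gene centred on its own mean, was 0.09 for PTGR1 and 0.11 for FTL. PTGR1, prostaglandin reductase, an NADPH-using enzyme, rose by 0.57 (limma adjusted p = 0.0111), and FTL, the ferritin light chain, by 0.55 (limma adjusted p = 0.0107). The measure takes in the difference between the groups, so a gene near TALDO1 must rise by about as much. The rises of PTGR1 and FTL and their p-values are thus no separate evidence. Likeness over 10 arrays in 2 groups is a description.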

How the data were processed

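Total RNA was hybridised to 10 Illumina HumanWG-6 bead arrays, per the labels. The authors deposited a table of log10 values for 48803 probes; its log base and background subtraction were inferred from the values, and which software and normalization made it is not stated in the labels or headers. Its highest value, 3.79, lies over a median of 0.243, which is a 3491-fold span in base 10 and an 11.7-fold span in base 2, too narrow for such arrays. Another deposited table has 10 columns with names that fit no label, and it was not used. Values were turned back to linear units, 3 units were added, and log2 values were quantile normalized. Differences of dim genes are understated on this scale, and a deposited normalization, if any, could not be undone.

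Probes whose mean exceeded the 25th percentile of all values (1.59) were kept, which left 44606. Of all probes, 27578 have 1 gene symbol, 13 have several and 21212 are unnamed here; symbols were updated through Entrez identifiers. The probe with the highest mean stood for a gene (17752 genes). Groups, taken from the sample titles, were tested in limma 3.58.1 under R version 4.3.3 (functions lmFit and eBayes, two-sided, all 10 arrays, no covariate), with Benjamini-Hochberg adjustment over all genes, or over all probes for a second probe, at 0.05. Changes of 5 gene pairs within arrays were tested with exact permutation of arrays and adjusted over the 5. The script was tested on simulated data. The 9 genes, the lists and the pairs were chosen with earlier results of these data known. Named genes were all members, up to 5 passing genes of each list and the 2 genes nearest to each passing member; others were picked after their values were seen. Same-numbered arrays were not paired, as nothing in the labels ties them. Correlations of their deviations from group means ran from −0.0894 to 0.248. By this measure treated 2, 3 and 5 were each nearest to the control of the same number. Whether numbers pair the arrays was not tested. Alternatives covered offset, normalization, filter, probe rule, variance model, array weights, replicate block and arrays left out. Promoters came from RefSeq (GRCh38.p14). Figures were drawn with matplotlib 3.10.9.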

Additional observations from a re-analysis of the deposited data

Results flagged for a closer look

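A value stood out where its gap to the nearest of the other arrays, divided by the range of its group of 5, exceeded Dixon's 95% critical value of 0.71. This held for 6 of 34 sets of 5 values (17.6%), against 5% by chance for independent sets, which these are not. Control 3 gave 3 of the 6: ME1 was at 8.69 there against 7.51 to 7.71 on the other controls, TKT was at 10.03 against 10.48 to 10.57, and ME1 minus ME2 was at 0.85 against −0.70 to −0.26. PGLS was low on control 1, at 7.47 against 7.81 to 7.93. IDH1 was high on control 5, at 9.97 against 9.34 to 9.48. TKT minus RPIA was low on treated 5, at 3.40 against 3.74 to 3.81.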

How the results depend on the processing

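Of the 9 NADPH-supply genes, 1 passed as reported; the count was 0 with an offset of 1, on the deposited values and with the replicate block, 2 with an offset of 12, with a filter on probes above background on at least 5 arrays and with trend and robust variance, 3 with array weights, and 0 to 2 with 1 array left out. No member was lower in limma in any of 22 alternatives, nor at an unadjusted p under 0.05 as reported (0 of 9). Over all genes, 47 higher and 6 lower became 26 and 2 on the deposited values; with 1 array left out they ran from 32 to 47 and from 3 to 9. The call of TALDO1 was lost in 12 of 22 alternatives, including the replicate block (limma adjusted p = 0.131); the block also ended those of PTGR1 (0.0756) and FTL (0.0639) and no other call among the 9 genes and the 5 named reductases. The labels do not say whether replicate numbers pair the arrays. With the replicate block the pair test cannot go below an exact p of 0.0625. There ME1 minus ME2 stayed at 1.12, PGD minus PGLS at 0.52, TKT minus RPIA at 0.40 and TALDO1 minus RPIA at 0.44. Each had an adjusted exact p of 0.0781. These 4 pairs passed in the other 15 alternatives run for them. Values near 0 changed sign. IDH1 minus IDH2 was −0.0070 with an offset of 12 and −0.065 to 0.099 with 1 array left out. PGLS was −0.012 under median scaling and −0.046 to 0.072 with 1 array left out, and IDH1 −0.20 to 0.027. The dimmer TALDO1 probe was 0.0071 with an offset of 1, 0.034 without further normalization, 0.10 on the deposited values, 0.030 with array weights, 0.027 without control 3 and both arrays numbered 5, and −0.12 to 0.069 with 1 array left out. The dimmer IDH1 probe was −0.022 under median scaling, −0.041 with array weights and −0.081 to 0.18 with 1 array left out. The cause of these changes was not tested. Signal near background limits the dimmer TALDO1 probe, and the number of arrays limits all values.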

Other observations

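RPIA, IDH1 and IDH2 were each highest on the array numbered 5 in both groups. RPIA was at 7.38 on control 5 and 7.52 on treated 5, IDH1 at 9.97 and 9.86, and IDH2 at 5.83 and 5.59. Over all genes, 8.4% had both their highest control and their highest treated value on the arrays numbered 5, against 2.42% to 4.97% for each of the other numbers. Nothing in the labels ties arrays of one number together, and these genes were picked out after their values were seen.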
